A study of Mus musculus with 12 samples.

Results

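Of 9 neural and primed epiblast genes followed in mouse embryonic stem cells that carried a hairpin against the noncoding RNA TUNA, Nes and Sox11 were higher and Otx2 was lower at day 6 than in the day 2 control. Sox11 was also higher at day 4, but each Sox11 call held in only 2 of the 6 fits that left 1 library out. The Nes call held in 4 of 6 such fits, and Nes could be tested only because its day 6 libraries were high. None of the 9 passed the test at day 2, the single day with its own control. Nes, which encodes the intermediate filament nestin, averaged 28.4 ± 6.66 normalized counts at day 6 (SD, n = 3), and the control libraries lay between 0 and 7.77. Otx2, which encodes a homeodomain factor of the epiblast and the anterior nervous system, averaged 9.02 ± 2.52 at day 6 and 27.4 ± 4.36 in the control. Tubb3 and Ncam1 passed no test. Pax6, Zic2, Pou3f1 and Fgf5 were below the filter on low values. Without that filter Pax6 was called higher at day 4, and Sox11 was no longer called there.

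The 9 genes are Otx2, Pou3f1, Fgf5, Zic2, Sox11, Pax6, Nes, Tubb3 and Ncam1. They were chosen by symbol, as genes of the lineage that TUNA is reported to support, and they are 9 of 37477 gene symbols measured. The cells are CCE, an established mouse embryonic stem cell line, grown in serum medium with LIF, a cytokine that keeps such cells undifferentiated. All 12 libraries come from cells transduced with a pLKO.1-puro lentivirus and kept in puromycin, which kills cells without the vector. The 4 groups are the hairpin against TUNA at day 2, at day 4 and at day 6 after transduction, and a control hairpin at day 2, with 3 libraries each. No day 4 or day 6 control was analysed here, so in those comparisons the hairpin and the days in culture cannot be told apart. Whether the 3 libraries of a group are separate cultures is not in the labels, so a p-value here measures library spread, which can be technical.

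Embryonic stem cells that leave the naive state pass through a primed state that resembles the epiblast after implantation, in which Otx2, Pou3f1, Zic2 and the signal Fgf5 are switched on. Without signals for other germ layers, primed cells turn into neural progenitors, which are known for Sox and Pax transcription factors and for nestin, and then into neurons with their own tubulins and adhesion molecules. LIF and the BMP signals of serum, which act in part through the Id proteins, hold embryonic stem cells back from this route.

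The deposited values are log2 normalized counts, given here as normalized counts. A value listed at 0 stands for 1 normalized count or less. Libraries held 936457 to 2024831 recovered reads outside 3 dominant rows that held 60.4% to 76.9% of the reads, and 1 read was worth 0.651 to 1.42 normalized counts. The row of the targeted RNA, 2810011L19Rik, was listed at 0 in all 12 libraries and does not check the hairpin. Pou5f1, the pluripotency factor Oct4, lay between 430 and 808 normalized counts and Nanog between 198 and 551 over the 12 libraries, so the defining markers of embryonic stem cells were present in every group. The filter for testing asked for 10 or more normalized counts in 3 or more libraries, which left 8739 rows. Of the 9 genes, 5 passed this filter and 4 did not. Nes passed it through its 3 day 6 libraries alone, and Sox11 through 2 libraries of day 4 and 2 of day 6, so both could be tested only because they were high there, and counts over the tested genes are given as descriptions. Of the called genes of the wider lists named further on, Meis2, Sox12, Cubn, Pdgfra, Krt8 and, at day 6, Acta2 would also miss the filter without the libraries of the group in which they were higher. Changes are differences of log2(normalized count + 1), fitted with limma over all 12 libraries, and a gene is called at a Benjamini-Hochberg adjusted p under 0.05 over all tested rows.

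**Figure D1:**
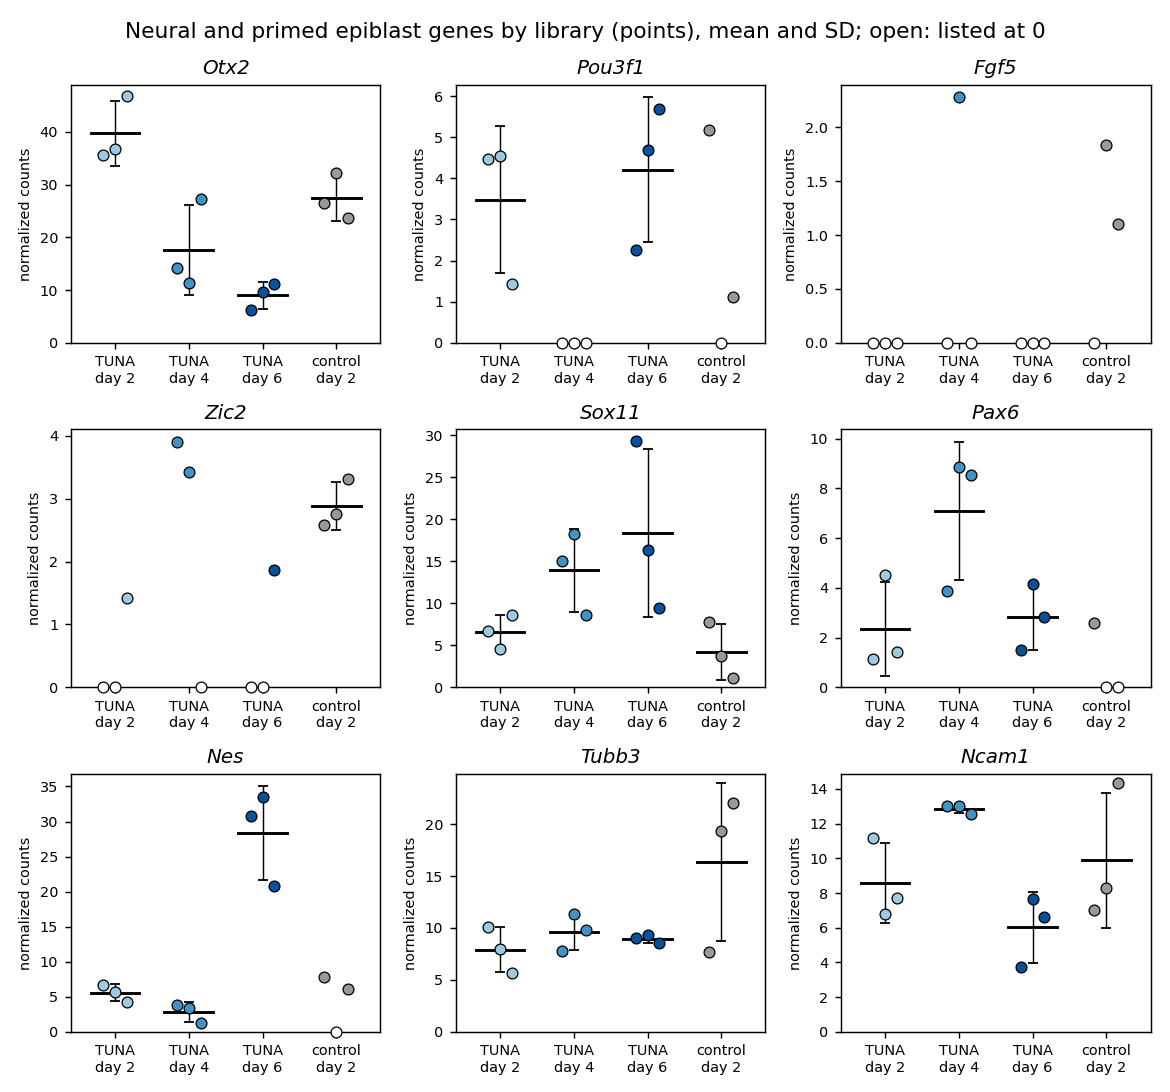
Normalized counts of the 9 genes in the TUNA hairpin libraries of day 2, day 4 and day 6 and in the control hairpin libraries of day 2. Points are libraries (3 per group), open points are values listed at 0, and bars with whiskers are the mean and SD of groups with no such value. Nes stands at 20.9 to 33.5 at day 6 and at 7.77 or less elsewhere, and Otx2 is lowest at day 6.

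Over the 5 tested genes, limma called 0 at day 2, where 1 had an unadjusted p under 0.05 and limma-voom also called 0; over all tested rows 0.412% were called higher and 0.549% lower, 0.961% in all. Day 4 against control had 1 member higher (6.99% of all rows) and 0 lower (7.76%; 14.7% either way). Day 6 against control had 2 members higher (3.07% of all rows) and 1 lower (3.15%; 6.21% either way). Day 4 against day 2 had 0 higher (3.27%) and 1 lower (4.38%; 7.66% either way), and day 6 against day 4 had 1 higher (2.64%) and 0 lower (2.94%; 5.58% either way). Groups without overlap were more common. At day 2 this held for 1 member higher and 0 lower, against 9.76% and 10.3% of all rows, and at day 4 for 1 higher and 0 lower, against 15.5% and 16.9%. At day 6 it held for 2 higher and 1 lower, against 11.2% and 12.8%, at day 4 against day 2 for 2 higher and 2 lower, against 14.2% and 14.3%, and at day 6 against day 4 for 1 higher and 2 lower, against 11.5% and 11.8%. The 3 comparisons with the control share its libraries, so they are not separate evidence. The median change of all tested rows was -0.01 to 0.01 in each comparison.

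The promoters of the 3 genes that were called at day 6 are printed because 2 of them were higher there and 1 was lower. Each is the 250 bases before the most upstream start in RefSeq on GRCm38.p6, 5′ to 3′ on the strand of the gene, with capitals for E-boxes (CANNTG), the sites of basic helix-loop-helix factors that Id proteins hold back. Nes lies at chr3:87970843-87971092 on the plus strand, Sox11 at chr12:27342719-27342968 on the minus strand and Otx2, with 4 listed starts, at chr14:48667645-48667894 on the minus strand.
Nes: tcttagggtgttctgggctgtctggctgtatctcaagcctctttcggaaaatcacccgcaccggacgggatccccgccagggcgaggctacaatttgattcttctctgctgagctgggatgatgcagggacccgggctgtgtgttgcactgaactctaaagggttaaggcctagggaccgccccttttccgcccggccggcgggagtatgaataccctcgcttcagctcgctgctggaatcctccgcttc
Sox11: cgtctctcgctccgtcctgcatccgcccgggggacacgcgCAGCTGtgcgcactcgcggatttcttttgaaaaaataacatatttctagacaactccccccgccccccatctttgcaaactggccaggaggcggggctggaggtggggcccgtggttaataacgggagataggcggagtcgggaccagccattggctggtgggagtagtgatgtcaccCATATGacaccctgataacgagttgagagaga
Otx2: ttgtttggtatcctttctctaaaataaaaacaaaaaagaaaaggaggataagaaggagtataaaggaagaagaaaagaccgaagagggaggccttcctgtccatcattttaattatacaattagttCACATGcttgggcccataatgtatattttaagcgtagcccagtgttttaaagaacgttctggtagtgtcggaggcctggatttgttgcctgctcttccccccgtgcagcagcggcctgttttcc
The Nes window holds no E-box, the Sox11 window holds 2 and the Otx2 window holds 1, and 66.1% of 27025 mouse promoters of this length hold at least 1. None of the 3 windows matched, on either strand, ACAAAG (SOX factors; in 16.5% of promoters), ATGCAAAT (octamer; 1.62%), TAATCC (OTX factors; 6.37%), GGAATG (TEAD factors; 12.6%) or ACGTG (HIF; 16.5%). The windows held 15 CpG dinucleotides in Nes, 17 in Sox11 and 6 in Otx2.

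Otx2 was lower at day 4 than at day 2 under the TUNA hairpin, and lower at day 6 than in the control. It had 35.7, 36.8 and 46.9 normalized counts at day 2, 14.2, 11.4 and 27.3 at day 4, 6.24, 9.66 and 11.2 at day 6, and 26.4, 32.2 and 23.6 in the control. The 3 day 2 libraries all lay above the control, day 4 overlapped with it through replicate 3, and all 3 day 6 libraries lay below it. At day 6 the log2 change against control was -1.53 ± 0.31 (SE; 95% interval -2.19 to -0.87), a fold of 0.347, with an adjusted p of 0.00620 by limma. This call held when any of the 6 libraries was left out, with log2 changes of -1.68 to -1.31 and adjusted p-values of 0.00781 to 0.0412. In these bulk libraries, fewer cells with Otx2 and less Otx2 RNA per cell cannot be told apart.

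Between days under the same hairpin, Otx2 fell by 1.21 ± 0.31 on the log2 scale at day 4 against day 2 (adjusted p 0.0244 by limma). The call was lost without day 2 replicate 1 (adjusted p 0.0544), replicate 2 (0.0650) or replicate 3 (0.109), and without day 4 replicate 1 (0.0813) or replicate 2 (0.120). Day 6 against day 4 gave -0.84 ± 0.31 and did not pass (adjusted p 0.128), although the 2 groups did not overlap. Against control, day 2 gave 0.52 ± 0.31 (adjusted p 0.541) with no overlap between the groups. Day 4 against control gave -0.69 ± 0.31 (adjusted p 0.148), and passed when day 4 replicate 3, the library with 27.3, was left out (-1.04, adjusted p 0.0295).

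Pou3f1, a POU factor that also goes by Oct6 and marks the primed epiblast, stayed under 6 normalized counts in every library. It had 4.48, 4.54 and 1.42 at day 2, was listed at 0 in all 3 day 4 libraries, and had 2.25, 4.68 and 5.69 at day 6, against 5.18, 0 and 1.10 in the control. Day 4 is thus the only group in which no library held a value, and with each of its libraries taken at the 1 normalized count that a listed 0 can hold, the level could be up to 2.82 normalized counts (95% Poisson limit, which covers counting error only). With no filter, over 15783 rows, day 6 against day 4 gave a log2 change of 2.32 ± 0.62 and day 4 against day 2 -2.07 ± 0.62, and neither passed (adjusted p 0.0515 and 0.0757 by limma).

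Zic2, a zinc finger factor of the primed epiblast and neural plate, was above 0 in all 3 control libraries and in 4 of the 9 others. It was listed at 0 in day 2 replicates 1 and 2 and had 1.42 in replicate 3. Day 4 had 3.91, 3.42 and 0, day 6 had 0, 0 and 1.87, and the control had 2.59, 2.76 and 3.31. Both the day 2 and the day 6 libraries lay below every control library. With no filter the log2 change was -1.53 ± 0.63 at day 2 and -1.45 ± 0.63 at day 6 (adjusted p 0.446 and 0.272 by limma), so neither passed. These values rest on 1 recovered read at day 2, 1.97 at day 6 and 9 in the control, each summed over 3 libraries with listed zeros taken as 0.

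Fgf5, the secreted factor by which the primed epiblast is usually recognised, was close to the limit of detection. It was listed at 0 in all day 2 and all day 6 libraries. It had 2.28 in day 4 replicate 2 and 1.84 and 1.10 in control replicates 2 and 3, which is 5 recovered reads over the 12 libraries. A difference between groups was not detectable at this depth: with listed zeros taken at 1 normalized count, the 95% Poisson limit is 3.22 normalized counts at day 2 and 2.66 at day 6. Fgf4, the related signal that embryonic stem cells themselves make, was well measured and fell to 102 ± 6.65 at day 6, where the control had 217 ± 23.4 (a log2 change of -1.07 ± 0.15 with adjusted p 0.000218).

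Sox11, a SoxC transcription factor of neural progenitors and young neurons whose promoter window holds the 2 E-boxes, was higher at day 4 and day 6. It had 6.72, 4.54 and 8.55 normalized counts at day 2, 15.0, 18.2 and 8.56 at day 4, 29.3, 16.4 and 9.48 at day 6, and 7.77, 3.68 and 1.10 in the control. Every day 4 and day 6 library lay above every control library (no library of day 2 or the control reached the filter), though the lowest day 4 value and the highest control value differed by less than 1 normalized count. The log2 change against control was 1.70 ± 0.52 at day 4 (95% interval 0.60 to 2.79, adjusted p 0.0357) and 2.00 ± 0.52 at day 6 (0.90 to 3.10, adjusted p 0.0273), by limma, which are folds of 3.24 and 4.00. At day 2 it was 0.75 ± 0.52 (adjusted p 0.613), and neither day 4 against day 2 (0.95 ± 0.52, adjusted p 0.285) nor day 6 against day 4 (0.30 ± 0.52, adjusted p 0.794) passed.

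Both Sox11 calls depended on single libraries. The day 4 call was lost without control replicate 2 (adjusted p 0.0757) or 3 (0.149) and without day 4 replicate 1 (0.0938) or 2 (0.135). The day 6 call was lost without control replicate 2 (0.0653) or 3 (0.119) and without day 6 replicate 1 (0.161) or 2 (0.0718). Without control replicate 3, the library with 1.10, the log2 change was 1.16 at day 4 and 1.46 at day 6. With limma-voom on the recovered reads the adjusted p was 0.0859 at day 4 and 0.0680 at day 6, and with the 2 groups alone it was 0.0643 and 0.0550. With no filter it was 0.0607 at day 4 and 0.0439 at day 6. Of the other SoxC genes, Sox4 was higher at day 4 (41.7 ± 5.19 against 20.5 ± 5.54 in the control, a log2 change of 1.02 ± 0.24 with adjusted p 0.00809) and held without each library. Sox12 was higher at day 4 (15.4 ± 1.84) than at day 2 (2.35 ± 0.970), with a log2 change of 2.32 ± 0.49 (adjusted p 0.00726), and was not called against control (adjusted p 0.0573 at day 4 and 0.498 at day 6).

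Pax6, a paired-box factor of neural progenitors and the eye field, was highest at day 4. It had 1.12, 4.53 and 1.42 normalized counts at day 2, 3.89, 8.84 and 8.56 at day 4, 1.5, 4.15 and 2.84 at day 6, and 2.59, 0 and 0 in the control. The day 4 libraries all lay above the control libraries, and no library reached the 10 normalized counts of the filter. With no filter the day 4 change against control was 2.33 ± 0.62 with an adjusted p of 0.0263 by limma over 15783 rows. It rests on 20.7 recovered reads at day 4 and 3 in the control. The pooled level was 6.42 normalized counts at day 4 (95% Poisson interval 3.96 to 9.83) and 0.951 in the control (0.196 to 2.78, or up to 3.70 with the 2 listed zeros taken at 1 normalized count).

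Nes was low at day 2, at day 4 and in the control, and high at day 6. It had 6.72, 5.68 and 4.27 normalized counts at day 2, 3.84, 3.42 and 1.22 at day 4, 30.8, 33.5 and 20.9 at day 6, and 7.77, 0 and 6.16 in the control. All 3 day 6 libraries lay above every other library. The day 6 values are 41.0, 43.0 and 22.0 reads, against 9 and 5.59 reads in control replicates 1 and 3. The log2 change was 2.86 ± 0.66 against control (95% interval 1.48 to 4.24, adjusted p 0.0130 by limma) and 2.99 ± 0.66 against day 4 (adjusted p 0.0114), which are folds of 7.25 and 7.96. With no filter these adjusted p-values were 0.0185 and 0.0174. Day 2 (0.70 ± 0.66, adjusted p 0.725) and day 4 (-0.13 ± 0.66, adjusted p 0.917) did not pass against control. Every day 4 library lay below every day 2 library, but day 4 against day 2 did not pass either (-0.84 ± 0.66, adjusted p 0.469).

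The size of the Nes change against control depended on control replicate 2, which is listed at 0. Without it the log2 change was 1.86 (adjusted p 0.0375), without control replicate 1 it was 3.43 (0.00908) and without control replicate 3 it was 3.28 (0.0145). The call against control was lost without day 6 replicate 1 (0.0623) or replicate 2 (0.0548), and the call against day 4 without day 6 replicate 1 (0.0573). Vim, the intermediate filament vimentin that pairs with nestin in neural progenitors but is also made by many other cells, rose with it. Vim had 145, 149 and 108 at day 6, against 54.1, 58.5 and 57.8 in the control (1.21 ± 0.20 on the log2 scale, adjusted p 0.00115), and held without each library.

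Tubb3, the neuron-enriched class III beta-tubulin, passed no test. It had 10.1, 7.95 and 5.70 normalized counts at day 2, 7.82, 11.3 and 9.78 at day 4, 9.01, 9.34 and 8.53 at day 6, and 7.71, 19.3 and 22.0 in the control. In each comparison with the control the groups overlapped through control replicate 1, the lowest of its group. The log2 change was -0.87 ± 0.39 at day 2 (unadjusted p 0.0403, adjusted p 0.386), -0.60 ± 0.39 at day 4 (adjusted p 0.331) and -0.68 ± 0.39 at day 6 (adjusted p 0.369). The other beta-tubulins differed among themselves. Tubb6 was higher at day 6, at 152 ± 49.3 against 60.1 ± 2.10 in the control (1.27 ± 0.23 on the log2 scale, adjusted p 0.00308), and Tubb2b, of newborn neurons, was lower, at 135 ± 12.6 against 222 ± 28.5 (-0.71 ± 0.15, adjusted p 0.00643). Tubb5, Tubb2a and Tubb2c were not called in any of the 5 comparisons.

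Ncam1, the neural cell adhesion molecule, had 11.2, 6.81 and 7.74 normalized counts at day 2, 13.0, 13.0 and 12.6 at day 4, 3.74, 7.68 and 6.64 at day 6, and 7.03, 8.28 and 14.3 in the control. Each TUNA hairpin group overlapped with the control, and no comparison with it passed (adjusted p 0.923 at day 2, 0.528 at day 4 and 0.419 at day 6 by limma). Within the TUNA hairpin series day 4 lay above both other days without overlap, but neither difference passed. Day 6 against day 4 gave -1.03 ± 0.39 (95% interval -1.85 to -0.21, adjusted p 0.134).

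**Figure D2:**
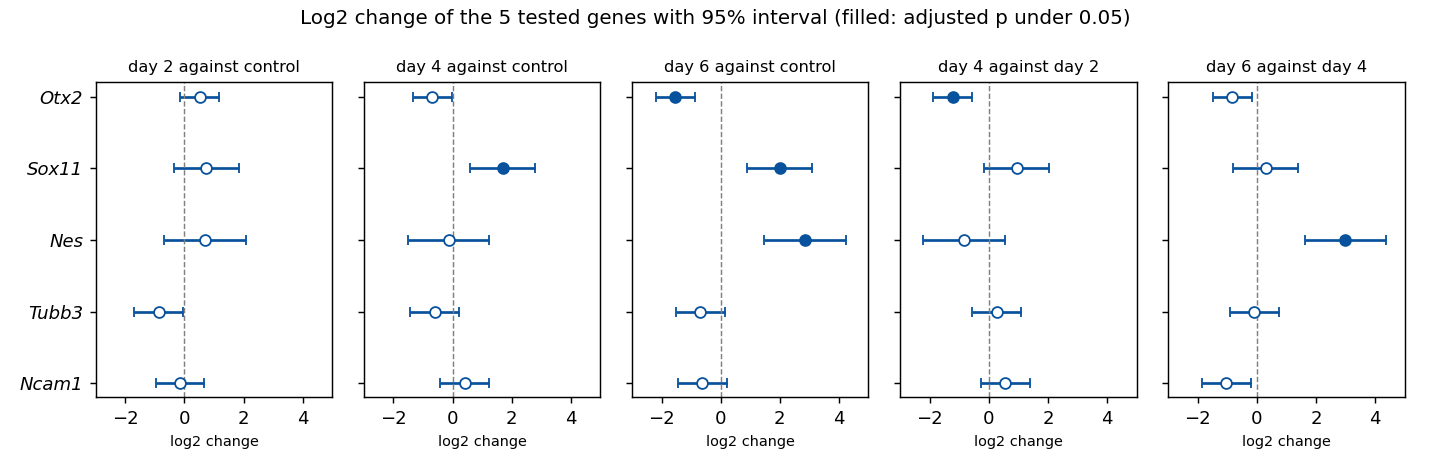
Log2 change of the 5 tested genes, on the log2(normalized count + 1) scale, in 5 comparisons with 3 libraries per group. Whiskers are 95% intervals from the limma fit and filled points have an adjusted p under 0.05. Filled points are Sox11 at day 4, Otx2, Sox11 and Nes at day 6, Otx2 at day 4 against day 2, and Nes at day 6 against day 4.

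Levels of different genes were compared per kb of exon, with lengths from GENCODE M21 on GRCm38, since the annotation behind the counts is not known here. At day 6 Tubb3 (4.80 ± 0.216 normalized counts per kb) and Nes (4.63 ± 1.09) had the highest means. Otx2 (3.01 ± 0.841) and Sox11 (2.21 ± 1.21) followed, and Pou3f1 (1.09 ± 0.459), Ncam1 (0.853 ± 0.289) and Pax6 (0.410 ± 0.192) came after, with Zic2 and Fgf5 listed at 0 in 2 and 3 of the day 6 libraries. From Tubb3 to Pax6, the libraries of each gene overlapped with those of the next. In the control Otx2 (9.15 ± 1.45) and Tubb3 (8.75 ± 4.06) overlapped and stood above the rest, and Ncam1 (1.40 ± 0.554), Zic2 (1.18 ± 0.154) and Nes, with replicate 2 listed at 0, did not differ beyond their spread. All other members had means under 1 per kb there. Some relatives of the members were far higher: in the control Tubb5 stood at 218 ± 14.1 per kb, Tubb2b at 102 ± 13.1 and Fgf4 at 71.5 ± 7.74. Others were low or absent. Of 39 measured genes of the members' families, 11 were listed at 0 in all 12 libraries, among them Otx1 and Zic1.

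The members did not move as 1 group over the 12 libraries. The Pearson correlation of log2 values was -0.69 between Sox11 and Otx2, -0.63 between Nes and Otx2, and 0.45 between Nes and Sox11 (n = 12 libraries, which fall into 4 groups, so these are descriptions). Tubb3 and Otx2 stood at 0.02 and Tubb3 and Ncam1 at 0.38. Among the 3260 rows that averaged 50 normalized counts or more, those most like Otx2 were Mme (0.93), Senp3 (0.92) and Rpa1 (0.92), and those most like Nes were Txndc15 (0.86), Gosr2 (0.84) and Tmsb4x, thymosin beta 4 (0.83). Tmsb4x had 592 ± 103 at day 6, against 200 ± 20.8 in the control. Sox11 was most like Rc3h1 (0.86), Perp (0.82) and Pmaip1, the apoptosis gene Noxa (0.82). Perp had 45.7 ± 5.24, 74.1 ± 8.75 and 116 ± 8.30 at days 2, 4 and 6, against 22.0 ± 8.22 in the control. Tubb3 was most like Pank3 (0.91), Riok3 (0.81) and Tfdp2 (0.76), and Ncam1 most like Zfp68 (0.86), Mcm6 (0.80) and Pecr (0.77).

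The wider list of primed epiblast genes held 26, of which 11 were tested. At day 4 there were 0 higher and 2 lower (6.99% and 7.76% of all rows), the de novo DNA methyltransferases Dnmt3a and Dnmt3b. Dnmt3a had 51.3, 59.5 and 58.7 normalized counts at day 4, against 140, 115 and 118 in the control (-1.12 ± 0.18 on the log2 scale, adjusted p 0.000508). Dnmt3b had 17.0 ± 7.01 at day 4, against 46.1 ± 10.6 in the control (-1.43 ± 0.32, adjusted p 0.00596). At day 6 there were 3 lower and 1 higher (3.15% and 3.07% of all rows). The lower ones were Otx2, Dnmt3a (-0.93 ± 0.18, adjusted p 0.00415) and the TGF-beta family signal Nodal (-0.86 ± 0.20, adjusted p 0.0134), and the higher one was the epithelial factor Grhl2 (1.32 ± 0.33, adjusted p 0.0201). The Nodal call was lost without control replicate 1 or day 6 replicate 1 (highest adjusted p 0.0866), and that of Grhl2 when 1 of control replicates 2 and 3 or of day 6 replicates 1 and 2 was left out (highest 0.0808).

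The median log2 change of the 11 was 0.00 at day 2, -0.33 at day 4 and -0.45 at day 6, against medians of 0.01, -0.01 and -0.01 over all tested rows. None of the 11 was called at day 2 by limma. Between days, Dnmt3a (-0.85 ± 0.18) and Otx2 were lower at day 4 than at day 2. At day 6 against day 4 Grhl2 was higher (1.29 ± 0.33, adjusted p 0.0275, lost in 5 of the 6 fits without a library of the 2 groups) and the Nodal co-receptor Tdgf1 lower (-0.78 ± 0.15, adjusted p 0.00443). Of the 26, Sox3, Fgf8 and Car14 were listed at 0 in all 12 libraries, and 15 in all were too low to be tested.

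The neural progenitor list held 31 genes, of which 6 were tested, among them Nes, Sox11, Vim, Sox4 and Meis2. At day 4 Sox11 and Sox4 were higher and Meis2, a homeodomain factor, was lower, at 5.85, 3.42 and 0, against 17.1, 22.0 and 19.4 in the control (-2.71 ± 0.62 on the log2 scale, adjusted p 0.00725). At day 6 Nes, Sox11 and Vim were higher and 0 were lower, and against day 4 Nes and Vim (1.26 ± 0.20, adjusted p 0.000822) were higher. Of all tested rows 6.99% were called higher and 7.76% lower at day 4, and 3.07% and 3.15% at day 6. For day 6 against day 4 the share called higher was 2.64%. The median log2 change of the 6 was 0.49 at day 2, -0.09 at day 4 and 0.96 at day 6. Nes, Sox11 and Meis2 reached the filter only with the groups in which they were high, so these medians are descriptions. Most of the list was too low to be tested. Of the 31, 10 were listed at 0 in all 12 libraries, among them the forebrain and neural factors Six3, Rax, Hesx1, Otx1, Sox3 and Zic1. The number at 0 in all 3 libraries of a group was 15 at day 2, 15 at day 4, 16 at day 6 and 18 in the control, and Sox1, the earliest neural Sox gene, reached 9.48 at most.

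The neuronal list held 25 genes, 24 of them measured here and 7 tested, and its called members went both ways. At day 4 there were 0 higher and 1 lower (6.99% and 7.76% of all rows). At day 6 there were 2 higher and 2 lower (3.07% and 3.15%). Mapt, the microtubule protein tau, had 8.46, 6.84 and 7.76 at day 4 and 3.0, 9.02 and 6.64 at day 6, against 31.2, 25.8 and 17.4 in the control. Its log2 change against control was -1.54 ± 0.36 at day 4 (adjusted p 0.00884) and -1.90 ± 0.36 at day 6 (0.00406), and both calls held without each library. Mapt was also lower at day 4 than at day 2 (-1.41 ± 0.36, adjusted p 0.0243), a call that was lost without any 1 of the day 2 libraries or day 4 replicate 2 (highest adjusted p 0.0973).

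Ina, a neuronal intermediate filament, had 18.7, 17.9 and 27.2 at day 6, against 4.49, 10.1 and 4.72 in the control (1.64 ± 0.40 on the log2 scale, adjusted p 0.0171). Dpysl3, a collapsin response mediator, had 21.2, 13.2 and 20.3 at day 6, against 10.3, 2.41 and 1.10 (2.12 ± 0.51, adjusted p 0.0162). The day 6 libraries of both genes lay above every control library. The Ina call was lost when 1 of control replicates 1 and 3 or of day 6 replicates 1 and 3 was left out (highest adjusted p 0.0798). The Dpysl3 call was lost without control replicate 2, control replicate 3 or day 6 replicate 1 (highest adjusted p 0.0799). Against day 4, Ina was higher (1.67 ± 0.40, adjusted p 0.0187, lost without day 4 replicate 3 or day 6 replicate 1 or 3, highest 0.0693) and Tubb2b lower (-0.51 ± 0.15, adjusted p 0.0484, lost without each of the 6 libraries, highest 0.157). The median log2 change of the 7 was -0.15 at day 2, -0.08 at day 4 and -0.62 at day 6. The neuronal genes Dcx, Rbfox3, Nefm, Snap25 and Slc17a6 were listed at 0 in all 12 libraries.

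**Figure D3:**
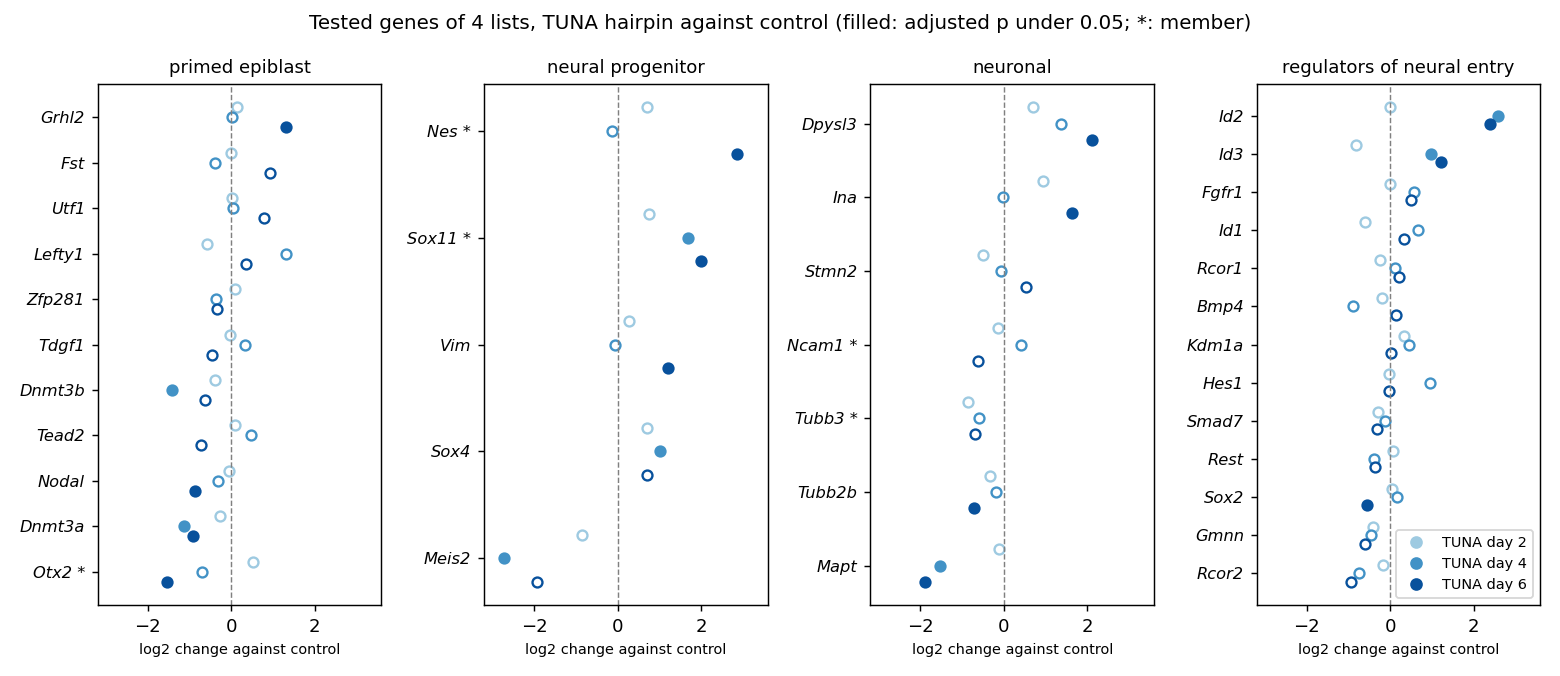
Log2 change against control of the tested genes of 4 lists (5 of the 6 for neural progenitors), on the log2(normalized count + 1) scale, at day 2, day 4 and day 6 of the TUNA hairpin. Filled points have an adjusted p under 0.05 and asterisks mark members of the 9. Of the called primed epiblast genes Dnmt3a, Dnmt3b, Nodal and Otx2 lie left of 0 and Grhl2 right of it, and Nes, Sox11 and Vim, called at day 6, lie right of it.

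Of 18 regulators of neural entry, 13 were tested. Among them the genes for the BMP-induced inhibitors Id2 and Id3 rose at day 4 and day 6. Of all tested rows 6.99% were called higher at day 4 and 3.07% at day 6. Id1, in the same list, was tested and was not called in any comparison. It had 19.5 to 30.7 normalized counts at day 4 and 17.1 to 24.4 at day 6, against 9.80 to 29.5 in the control. Id2 had 2.24, 2.27 and 2.85 normalized counts at day 2, 27.9, 20.5 and 13.4 at day 4, 17.2, 18.7 and 15.2 at day 6, and 1.73, 3.72 and 2.21 in the control. The log2 change of Id2 against control was 2.59 ± 0.41 at day 4 (adjusted p 0.000508) and 2.38 ± 0.41 at day 6 (0.00196), and both held without each library. Id3 gave 0.97 ± 0.25 at day 4 (adjusted p 0.0144, lost without control replicate 1 at 0.0819) and 1.21 ± 0.25 at day 6 (0.00663, held without each library). Against day 2, day 4 was higher for Id2 (2.59 ± 0.41) and Id3 (1.78 ± 0.25).

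Sox2, which both pluripotent and neural progenitor cells use, was lower at day 6, at 375 ± 15.9 against 551 ± 12.5 in the control (-0.55 ± 0.13 on the log2 scale, adjusted p 0.0134, lost without control replicate 2 at 0.0552 and with no intensity trend). It was also lower than at day 4 (-0.71 ± 0.13, adjusted p 0.00274). Rest, the repressor of neuronal genes, was lower at day 4 than at day 2 (-0.47 ± 0.14, adjusted p 0.0426), a call that was lost in 5 of the 6 fits without a library, all but the one without day 4 replicate 3 (highest adjusted p 0.156). It was not called against control. The median log2 change of the 13 was -0.18 at day 2, 0.16 at day 4 and 0.01 at day 6.

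**Figure D4:**
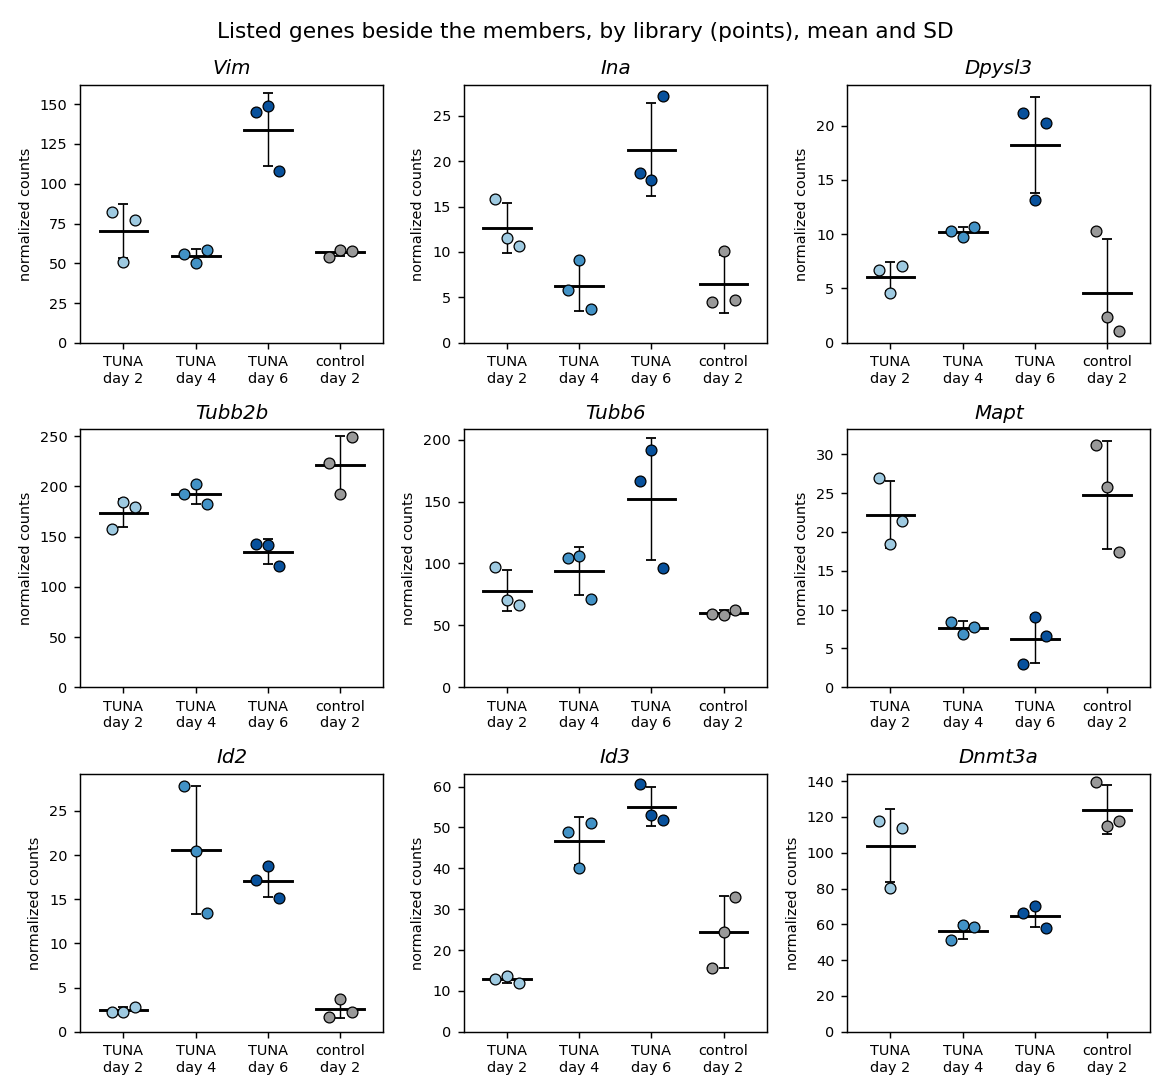
Normalized counts by library of 9 listed genes beside the members, in the TUNA hairpin libraries of day 2, day 4 and day 6 and the control hairpin libraries of day 2. Points are libraries, and bars with whiskers are the mean and SD of 3 libraries. Vim, Ina, Dpysl3 and Tubb6 are highest at day 6, Mapt and Dnmt3a are lowest at days 4 and 6, and Id2 and Id3 are highest at days 4 and 6.

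Markers of other cells were also higher at day 6, beside Nes, Vim and Sox11, and their part in those results was not tested. Of 14 fibroblast and feeder genes, 4 were tested, and Acta2, Tagln and Vim were higher at day 6. Of all tested rows 3.07% were called higher at day 6 and 6.99% at day 4. Acta2, smooth muscle actin, had 98.5 to 171 normalized counts at day 6 and 0 to 1.10 in the control, and Tagln, the actin-binding protein transgelin, had 149 ± 7.43 against 6.24 ± 1.63 (adjusted p 1.05e-05 and 3.32e-06 by limma). The summed level of the 14, most of it from the 4 tested genes, was 521 to 553 at day 6 and 151 to 227 in the control. The defining collagen and matrix genes Col1a1, Col1a2, Col3a1, Dcn, Lum and Postn were listed at 0 in all 12 libraries, as was S100a4. Both Acta2 and Tagln were also called higher at day 4, at lower levels (5.48 ± 3.58 and 16.0 ± 5.92), and each of those calls was lost in 4 of the 6 fits without a library (highest adjusted p 0.135 and 0.161).

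Of 9 trophoblast genes, 8 had a row and the test covered 2, the epithelial keratins Krt8 and Krt18. Both were higher at day 6, where 3.07% of all tested rows were called higher. Krt18 had 135 ± 29.1 at day 6, against 17.2 ± 5.92 in the control (2.93 ± 0.28 on the log2 scale, adjusted p 6.43e-06). Krt8 had 33.2 ± 5.91 against 8.22 ± 1.11 (1.89 ± 0.42, adjusted p 0.0111, lost without day 6 replicate 1 or 2, highest 0.0598). The summed level of the list, most of it from Krt8 and Krt18, was 136 to 196 at day 6 and 20.7 to 30.8 in the control. Hand1 and Tpbpa were listed at 0 in all 12 libraries and Cdx2, Elf5, Gata3 and Ascl2 were too low to be tested.

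Lists of other lineages gave 4 tested genes. Of 10 endoderm genes Cubn alone was tested and was higher at day 4, at 21.7 ± 2.36, and at day 6, at 9.59 ± 4.14 (adjusted p 0.000789 and 0.0285; the day 6 call was lost without control replicate 3 or any 1 day 6 library, highest 0.107). The 10 summed to 37.6 to 44.4 in the day 4 libraries, 11.2 to 25.7 in those of day 6 and 5.51 to 11.2 in the control, with Afp, Ttr and Apoa1 listed at 0 in all 12 libraries. Of 10 mesoderm genes Pdgfra alone was tested and was higher at day 4 than at day 2 (adjusted p 0.0180, lost without day 2 replicate 3 or day 4 replicate 1 or 2, highest 0.0805), and Mixl1, Mesp1, Gsc, Evx1 and Hand1 were listed at 0 throughout. The summed mesoderm level was 14.7 to 23.3 at day 4, against 2.85 to 10.3 at day 2. Of 11 neural crest and glia genes 2 were tested, of which Ngfr was lower at day 4 (2.71 ± 1.85 against 23.6 ± 5.38 in the control, adjusted p 0.000112), and higher at day 6 than at day 4 (adjusted p 0.00152). The summed crest and glia level was 29.8 to 35.9 at day 6 and 34.2 to 40.8 in the control.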

How the data were processed

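The authors deposited log2 normalized counts of 37477 symbols in 12 libraries, for which the submitters' processing notes name BWA, DESeq and the build mm9, with no version or role. Values were raised to normalized counts, with 0 for values listed at 0, which makes any mean over them a lower bound. The worth of 1 read in a library was read from the steps between its low values. Only 44.0% to 57.1% of low values lay within 0.02 of a whole read, so the main test was limma 3.58.1 in R 4.3.3 on log2(value + 1), with an intensity trend, 1 coefficient per group, and 8 residual and 9.48 prior degrees of freedom. The +1 understates changes of low genes. Strand and the sharing of reads between genes are not given in the sources used here. Otx2os1, opposite Otx2, reached 1.10 in 1 library, and Gm11149 and Gm2164, opposite Ncam1 and Pou3f1, were listed at 0.

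The members and lists were chosen with earlier results of these data known. All 9 members are named, with called list genes (up to 6 per list and comparison), family members averaging at least 10 normalized counts, and for each tested member the 3 rows most like it. Of the listed genes, 3 are not reported here by name, though list counts, sums and medians include them. Promoters came from RefSeq on GRCm38.p6, where 6 of the 9 members matched. On simulated counts for day 4 against control (8601 genes) 22.4% of genes changed 1.5-fold were recovered, 73.1% of those changed 2-fold and 100% of those changed 4-fold, and 5.80% of calls were on unchanged genes. The changed genes were drawn only from rows averaging 20 or more normalized counts. These rates therefore do not cover the lower members, among them Ncam1, Nes, Tubb3 and Sox11, which averaged 9.34 to 10.8. Alternatives were other scalings, filters and pseudocounts, no trend, a threshold of 0.01, the 2 groups alone, a replicate block, each library left out and, chosen after seeing the data, limma-voom on recovered reads. Whether replicate numbers pair libraries could not be settled, and the main fit used no pairing. Python 3.11.15 with matplotlib 3.10.9 drew the figures.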

Additional observations from a re-analysis of the deposited data

How the results depend on the processing

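The number of members called against control at day 4 was 1, and it was 0 with a filter of 20 normalized counts (which leaves out Sox11), with the 2 groups alone, at a threshold of 0.01 and with limma-voom, and 0 to 2 when 1 library was left out. With no filter it was also 1, but the gene was Pax6 (adjusted p 0.0263) and no longer Sox11 (0.0607). At day 6 it was 3, and 2 with a filter of 20 normalized counts, with the 2 groups alone and with limma-voom. It was 1 at a threshold of 0.01 and 1 to 3 with 1 library left out. For day 4 against day 2 and for day 6 against day 4 it was 1, and 0 at a threshold of 0.01 and 0 to 1 with 1 library left out. At day 2 it was 0 in every setting run. Otx2 at day 6 was called in all settings run, the threshold of 0.01 included.

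Some uncalled changes turned sign. The Nes log2 change at day 4 was 0.029 with a pseudocount of 0.5, 0.22 with limma-voom and -1.13 to 0.44 with 1 library left out. With 1 library left out, Nes at day 2 ranged from -0.29 to 1.28, Ncam1 at day 2 from -0.34 to 0.12, Tubb3 at day 6 against day 4 from -0.21 to 0.030, and Sox11 at day 6 against day 4 from -0.086 to 0.68. The cause was not tested. Of 410 member changes under the alternatives, 374 kept their direction and their side of the threshold. Most of the 410 belong to changes not called in the main fit, so the 374 say little about the calls. In 26 a call was lost, in 9 the sign turned and in 1 a call was gained.

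Same-numbered libraries correlated at -0.28 to 0.33 in their deviations from the group means (3 of 18 pairs over 0.1). Those with different numbers correlated at -0.33 to 0.31 (5 of 36 over 0.1). The 3 same-numbered pairs over 0.1 were all between TUNA hairpin groups. With 3 libraries per group these correlations cannot settle whether the numbers pair the libraries. With the replicate block the count of members called stayed at 0, 1, 3, 1 and 1 in the 5 comparisons, and over all rows it was 76, 1219, 507, 584 and 414, against 84, 1289, 543, 669 and 488 without it. Among the list genes it ended the calls of Rest at day 4 against day 2 (adjusted p 0.0567) and of Tubb2b at day 6 against day 4 (0.0765). Both of these were also lost with no filter, with the 2 groups alone and with no intensity trend. Grhl2 at day 6 against day 4 was lost with no filter, Cubn at day 6 with the 2 groups alone and limma-voom, Pdgfra with limma-voom, and Acta2 and Tagln at day 4 with no filter, the 2 groups alone, no trend or limma-voom, Acta2 also with a pseudocount of 4.

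Over all rows the day 2 count of 84 was 52 with no filter, 37 with no trend and 23 at a threshold of 0.01, and 18 to 44 with 1 library left out. At a threshold of 0.01 the other counts were 574, 232, 227 and 177, and day 6 against day 4 had 197 with the 2 groups alone. With 1 library left out they ranged from 821 to 1298, 304 to 565, 338 to 744 and 236 to 457. Depth limits the low members most: Pax6, Zic2, Pou3f1 and Fgf5 had at most 7.76 reads in any library.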
